A study of Homo sapiens with 6 samples.

Results

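The 8 E2F transcription factor genes (E2F1 to E2F8) and the pocket protein genes RBL1 and RBL2 were followed in lung cancer cells in which EGFR signalling was blocked. The 10 genes were taken by symbol from the 28395 genes of the table, and all 10 passed the filter on low values. They were read in 3 libraries of HCC827 cells given the solvent DMSO and in 3 libraries of cells given 1 μM erlotinib, each for 24 h. HCC827 is a human lung adenocarcinoma line whose growth is driven by a mutant EGFR with a small deletion in its kinase domain, and erlotinib inhibits that kinase. Both groups were the same line in the same serum-containing medium, and the labels name no difference but the drug. The table numbers the DMSO libraries 1 to 3 and the erlotinib libraries 4 to 6, and each held 20760204 to 24641819 reads on genes.

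Values are given as signal, which is the reads of a gene divided by the size factor of its library, so that 1 read was worth 0.923 to 1.13 units. A gene was called lower or higher at an adjusted p-value under 0.05 in limma. The labels do not say whether the libraries of a group came from separate cultures, so p-values measure only the spread between these libraries, which may be technical. The epithelial label of the line was met: KRT7, a keratin of simple epithelia, had the most signal of 8 epithelial markers, with a mean of 123686 in DMSO and 79897 with erlotinib, and the list summed to 272961 to 306865 and 229573 to 235147. The 8 markers did not all fall: 4 were called lower, all keratins, where 35.4% of all tested genes were lower. CLDN4 (14530 in DMSO and 27577 with erlotinib) and ELF3 (4954 and 16087) were called higher, where 35.3% of all tested genes were. EPCAM and CDH1 were called neither. PTPRC, a marker of all leukocytes, held at most 6 reads in any library, and the 7 leukocyte markers summed to 2787 to 3172 in DMSO and 3244 to 3539 with erlotinib, nearly all of it CD68. The other sums were higher with erlotinib as well. The summed signal of 7 fibroblast markers was 73.7 to 109.2 in DMSO and 217.2 to 260.2 with erlotinib, most of it COL1A1, and that of 5 endothelial markers was 15.8 to 34.0 and 46.5 to 58.1. In that list VWF had a mean of 3.94 in DMSO and 27.4 with erlotinib, and PECAM1 had 15.7 and 10.4. The part of these markers in the results was not tested.

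E2F proteins switch the genes of DNA replication and mitosis on and off as a cell passes from G1 into S phase. E2F1, E2F2 and E2F3 are the activators. E2F4 and E2F5 mostly repress in resting cells, where they sit on promoters with a pocket protein. E2F6 represses without a pocket protein as part of the Polycomb complex PRC1.6, and E2F7 and E2F8 are atypical repressors that carry a pair of DNA-binding domains and need no DP partner. RBL1 (p107) and RBL2 (p130) are pocket proteins that bind E2F4 or E2F5. Together with the MuvB proteins they form the DREAM complex, which silences cell cycle genes until D-type cyclins and their kinases phosphorylate the pocket protein.

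Several of these genes carry the letters of E2F sites in their own promoters, and the stretches that hold them are shown because the members with and without such a site can then be set beside their changes. The sequences are those of RefSeq on GRCh38.p14, and 8 members matched its windows of 300 bases (250 before the transcript start and 50 from it on), while E2F5 and E2F8 did not. Each window was searched on both strands for 8 words of the E2F site, TTTCCCGC, TTTCCCGG, TTTCGCGC, TTTCGCGG, TTTGCCGC, TTTGCCGG, TTTGGCGC and TTTGGCGG. The 70 bases directly before the start are printed below on the strand of the gene, with every E2F word or its reverse complement in capitals.
E2F1 (chr20:33686386-33686455, minus strand): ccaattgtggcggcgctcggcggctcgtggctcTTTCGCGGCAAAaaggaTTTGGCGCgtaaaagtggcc
E2F2 (chr1:23531234-23531303, minus strand): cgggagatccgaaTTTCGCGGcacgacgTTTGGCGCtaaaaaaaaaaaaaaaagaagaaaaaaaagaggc
E2F3 (chr6:20401809-20401878, plus strand): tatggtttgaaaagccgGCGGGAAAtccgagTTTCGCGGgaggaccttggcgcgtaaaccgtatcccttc
RBL1 (chr20:37095998-37096067, minus strand): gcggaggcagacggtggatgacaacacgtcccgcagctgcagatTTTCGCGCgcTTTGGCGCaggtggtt
E2F7 (chr12:77065570-77065639, minus strand): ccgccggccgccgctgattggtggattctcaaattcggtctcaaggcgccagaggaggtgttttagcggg
E2F4 (chr16:67192085-67192154, plus strand): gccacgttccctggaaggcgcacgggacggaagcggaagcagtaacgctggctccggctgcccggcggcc

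The promoter of E2F1 held 3 E2F words, of which one on each strand overlap, and those of E2F2, E2F3 and RBL1 held 2 words each. E2F1 and RBL1 carried the word nearest to the start, beginning 20 and 16 bases before it. E2F6 held 2 words as well, but 183 and 78 bases before its start, so the nearer lies outside a stretch of 70 bases. E2F3 has a further window, at its downstream start, and that one held none, as did the windows of E2F4, E2F7 and RBL2. For comparison, at least 1 E2F word was held by 12.1% of the 11130 tested genes with a window and by 6.19% of all 35116 windows of the reference. A match of letters is a description of the sequence and not a measured binding site.

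**Figure D1:**
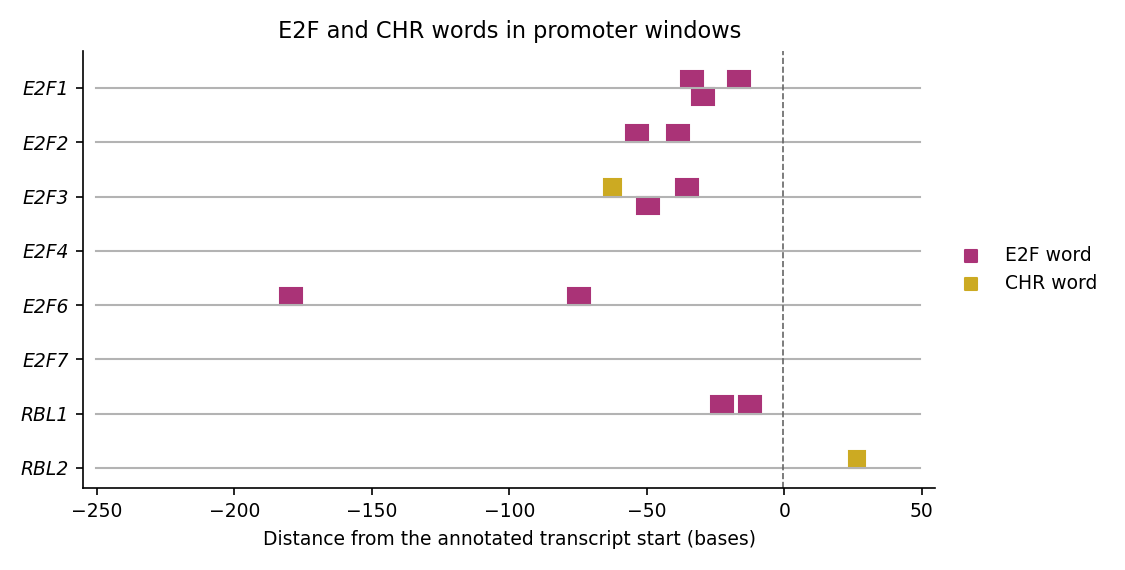
Positions of E2F words (purple) and CHR words (yellow, TTTGAA) in the first promoter window of the 8 members that have one, in bases from the annotated transcript start at 0. Boxes above a line are on the strand of the gene and boxes below it on the other strand. The words of E2F1, E2F2, E2F3 and RBL1 lie within 70 bases of the start, and E2F4 and E2F7 have none.

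With erlotinib, 8 of the 10 genes fell and 2 rose. Among all 14215 genes tested, 35.4% were lower and 35.3% higher, so changes as such were common and the lean towards lower values was not shared by the genes at large. The genes that fell were all 3 activators, the repressors E2F4, E2F6, E2F7 and E2F8, and the pocket protein RBL1. Those that rose were E2F5 and RBL2. In each of the 10 genes the 3 erlotinib libraries lay entirely on one side of the 3 DMSO libraries, below it for 8 genes and above it for 2. Over all tested genes, 36.9% lay entirely below and 36.7% entirely above. The median log2 fold change of the 10 genes was -1.43, against 0.02 for all tested genes. In bulk RNA, fewer cells that express a gene and less of its RNA per cell cannot be told apart.

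**Figure D2:**
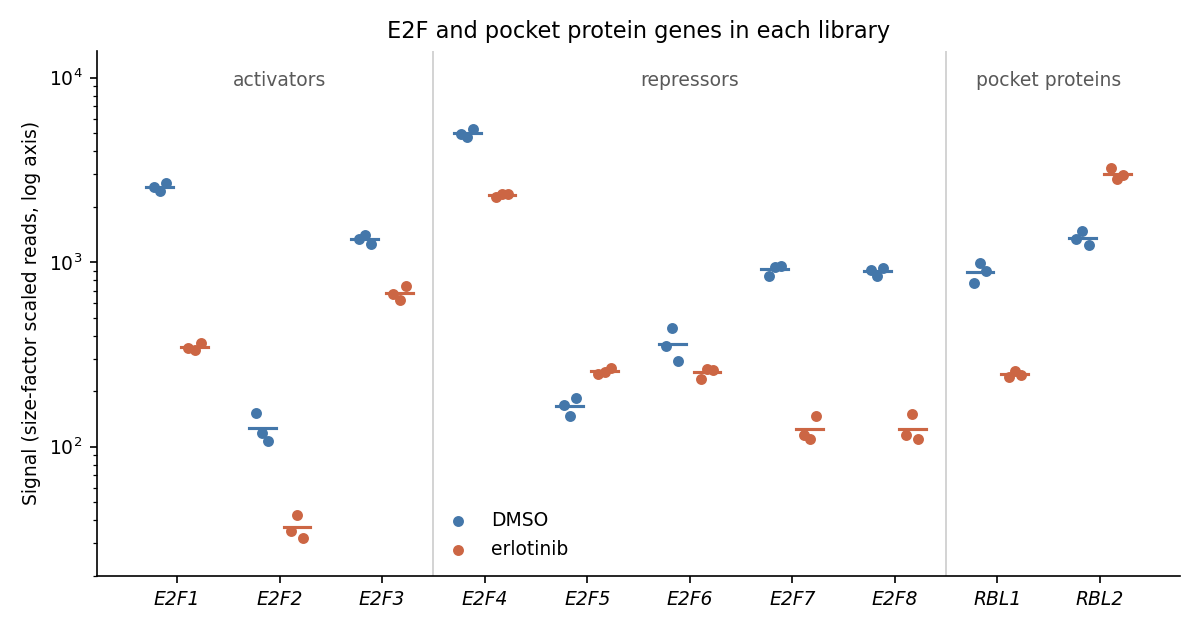
Signal of the 10 genes on a log axis, with 1 point per library and a bar at the mean of each group of 3 libraries (DMSO in blue, erlotinib in orange). The groups are apart in every gene, and E2F5 and RBL2 are the genes in which erlotinib lies above DMSO.

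Of the activators, E2F1 fell most. E2F1 is the member that drives entry into S phase most directly and can also promote cell death. It lies at chr20:33675477-33686385 of GRCh38. Its signal was 2550, 2444 and 2688 in the DMSO libraries and 341, 333 and 366 in the erlotinib libraries. The libraries of each group were close together, at 2561 ± 122 without and 347 ± 17.3 with the drug (SD, n = 3 each). On the log2 scale the difference was -2.88 ± 0.09 (SE, limma, adjusted p = 1.0e-16), a 7.37-fold fall, and only 97 of the tested genes had a lower value.

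E2F2, an activator that works beside E2F1 and E2F3, was the rarest transcript of the family. It lies at chr1:23505212-23531233. Its signal was 152, 119 and 107 in DMSO and 35.1, 42.6 and 31.8 with erlotinib. These values rest on 100 to 134 reads per DMSO library and 34 to 43 per erlotinib library, and its standard error was the largest of the 10 genes. It changed by -1.75 ± 0.24 (SE, limma, adjusted p = 1.8e-06) on the log2 scale, with a 95% confidence interval from -2.26 to -1.25.

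E2F3, whose locus at chr6:20401879-20493714 makes a longer and a shorter protein from separate promoters, fell least of the activators. Its signal was 1331, 1396 and 1260 in DMSO and 674, 628 and 745 with erlotinib. On the log2 scale E2F3 changed by -0.96 ± 0.09 (SE, limma, adjusted p = 5.9e-09). The confidence interval, -1.15 to -0.78, did not reach that of E2F1, -3.06 to -2.70. The table gives 1 value per gene, so the transcripts of E2F3 cannot be told apart. Most of the E2F3 transcript also aligned to the pseudogenes E2F3P1 on chromosome 17 (89.4% of its length at an identity of 90.9%) and E2F3P2 on chromosome 2 (85.0% at 88.0%). Reads that map to both places are lost when only unique ones are counted, and the part of this in the value of E2F3 was not tested.

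The repressors did not move as 1 group. The largest falls were those of the atypical pair. E2F7 (chr12:77021251-77065569) had a signal of 837, 944 and 959 in DMSO and 116, 110 and 146 with erlotinib. E2F8 (chr11:19224063-19241655) had 904, 846 and 932 in DMSO and 115, 149 and 110 with erlotinib. Both are themselves transcribed in S phase and then shut off E2F targets, and E2F1 is among the genes that they repress. On the log2 scale the change was -2.88 ± 0.13 (SE, limma, adjusted p = 6.4e-14) for E2F7 and -2.84 ± 0.13 (SE, limma, adjusted p = 8.7e-14) for E2F8. These repressors fell 7.35-fold and 7.16-fold beside 7.37-fold for the activator E2F1, and the intervals of the 3 genes overlap. E2F8 lies within the antisense RNA gene CSRP3-AS1, which the table does not list, and the strand that was counted is not stated.

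E2F4, the main E2F of resting cells, was the most abundant member and fell by about as much as E2F3. It lies at chr16:67192155-67198918. Its signal was 4928, 4784 and 5277 in DMSO and 2248, 2335 and 2356 with erlotinib. The change on the log2 scale came to -1.11 ± 0.07 (SE, limma, adjusted p = 5.9e-12), and its confidence interval of -1.25 to -0.97 overlaps that of E2F3.

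E2F5, the closest relative of E2F4, was the only E2F that rose. It lies at chr8:85177154-85214518. Its signal was 168, 146 and 184 in DMSO and 246, 254 and 268 with erlotinib. The rise was small, at 0.63 ± 0.15 (SE, limma, adjusted p = 7.5e-04) on the log2 scale and an interval from 0.32 to 0.94. The ends of E2F5 and of RBIS, listed as C8orf59, overlap by 471 bases. The mean signal of RBIS was 28.0 without and 34.3 with the drug, beside 166 and 256 for E2F5, and the part of shared reads was not tested.

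E2F6 changed least of the 10 genes. It lies at chr2:11444375-11466161. Its signal was 353, 438 and 292 in DMSO and 233, 265 and 262 with erlotinib, so that the lowest DMSO library was close to the highest erlotinib library. On the log2 scale E2F6 changed by -0.49 ± 0.14 (SE, limma, adjusted p = 0.0048). This call was the least stable of the 10: scaled to the total count of each library, the value was -0.31 with an adjusted p of 0.0618 (limma). The transcript of E2F6 aligned over 71.3% of its length, at an identity of 94.7% to 94.8%, to the pseudogenes E2F6P1, E2F6P2 and E2F6P3 on chromosome 22. The loss of reads shared with these copies may lower its signal, and that part was not tested.

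The pocket protein genes moved in opposite directions. RBL1 (chr20:36996349-37095997) encodes p107, which is made mainly in cycling cells. Its signal was 774, 995 and 892 in DMSO and 238, 256 and 245 with erlotinib, and it changed by -1.84 ± 0.11 (SE, limma, adjusted p = 8.5e-12) on the log2 scale. RBL2 (chr16:53434471-53491648) encodes p130, the pocket protein that gathers in resting cells. Its signal was 1339, 1479 and 1232 in DMSO and 3239, 2815 and 2970 with erlotinib. On the same scale RBL2 changed by 1.16 ± 0.08 (SE, limma, adjusted p = 6.8e-11), a 2.23-fold rise. RBL2 overlaps AKTIP by 609 bases, and the mean signal of AKTIP was 397 without and 292 with the drug. The part of shared reads in the value of RBL2 was not tested.

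Per kilobase of transcript, the ratio of RBL2 to RBL1 was 2.03, 1.74 and 1.62 in the DMSO libraries and 15.9, 12.9 and 14.2 in the erlotinib libraries. RBL2 thus made up 64.1% ± 2.6 of the RBL1 and RBL2 signal per kilobase without the drug and 93.4% ± 0.7 under it (SD, n = 3). The ratio depends on the length used: over the union of all annotated exons its mean was 1.13 in DMSO and 8.98 with erlotinib, which leaves the fold between the groups as it was.

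Levels can be compared between genes only per length, and on that scale E2F4 led in both groups. Its signal per kilobase averaged 2368 ± 120 without the drug and 1096 ± 27.2 under it (SD, n = 3). In DMSO, E2F1 came next of the E2F genes with 952 ± 45.3, followed by E2F3 with 264 ± 13.5 and E2F8 with 241 ± 11.9, and E2F7 (160 ± 11.6) stood above E2F6 (112 ± 22.7), E2F5 (84.5 ± 9.79) and E2F2 (24.2 ± 4.49). E2F3 and E2F8 differed by less than the sum of their SDs, as did E2F6 and E2F5. Over the union of exons both pairs differed by more than that in DMSO. There E2F3 had 256 ± 13.1 and E2F8 216 ± 10.6, and E2F6 had 88.8 ± 18.1 and E2F5 27.7 ± 3.2. Per kilobase of transcript, E2F3 (135 ± 11.8), E2F5 (130 ± 5.48) and E2F1 (129 ± 6.43) were no longer apart beyond their spread with erlotinib. That tie and the place of E2F5 depend on the length used, since over the union of exons E2F5 had 27.7 in DMSO and 42.7 with erlotinib, below the 131 and 129 that E2F3 and E2F1 had with erlotinib. E2F6 (78.4 ± 5.59) then stood above E2F8 (33.8 ± 5.74), E2F7 (21.7 ± 3.37) and E2F2 (7.02 ± 1.06). Reads that cross introns or that match pseudogene copies can be lost to an extent that differs between genes. The part of this in the levels, and in the sum and shares below, was not tested.

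The summed E2F signal per kilobase was 4205 ± 152 without the drug and 1632 ± 49.0 under it (SD, n = 3), and over the union of exons it was 3098 ± 99.7 and 1065 ± 33.4. Within this smaller pool E2F1 made up 22.6% ± 0.31 in DMSO and 7.90% ± 0.29 with erlotinib. E2F7 and E2F8 together made up 9.53% ± 0.14 and 3.40% ± 0.21. The share of E2F4 was 56.3% ± 0.81 in DMSO and 67.2% ± 0.63 with erlotinib, although its level fell, and that of E2F5 was 2.01% ± 0.17 and 7.99% ± 0.11. E2F3 also took a larger share with erlotinib, 8.30% ± 0.61 beside 6.29% ± 0.54. The activators as a class went from 29.5% ± 0.42 to 16.6% ± 0.83. The shares are a description and were not tested. Over the union of exons E2F1 had 30.7% and 12.1%, E2F4 44.8% and 60.4%, E2F5 0.89% and 4.01%, and the activators 39.7% and 25.1%.

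**Figure D3:**
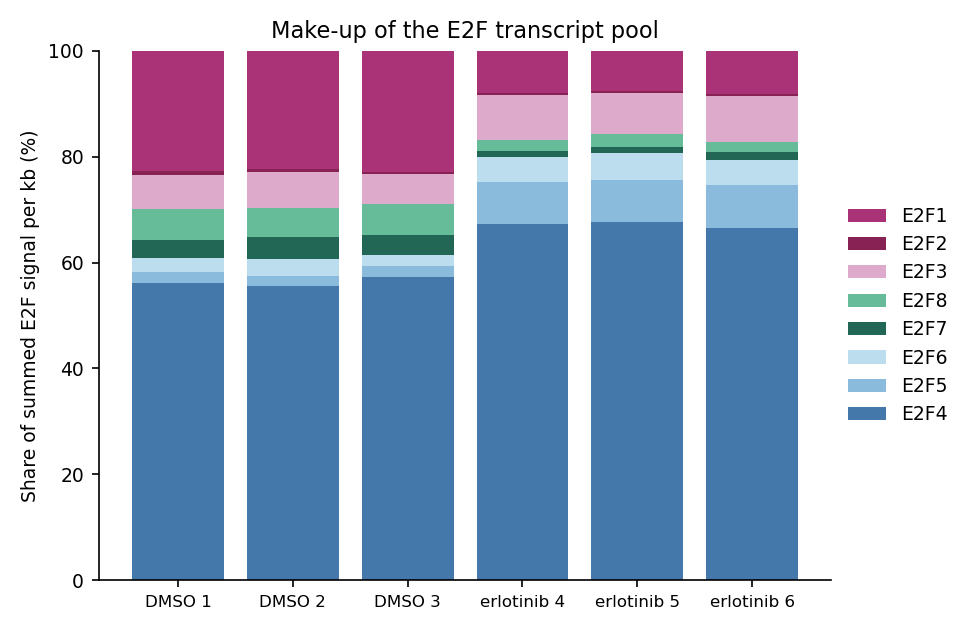
Share of each E2F gene in the summed E2F signal per kilobase of transcript, in percent, for each of the 6 libraries. E2F1, at the top, makes up 22.3% to 22.8% of the DMSO bars and 7.57% to 8.10% of the erlotinib bars, while E2F4, at the bottom, fills 55.6% to 57.2% and 66.5% to 67.7%.

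Set beside the promoter sequences above, the 5 members with E2F words (E2F1, E2F2, E2F3, E2F6 and RBL1) all fell, by 0.49 to 2.88 on the log2 scale. The 3 members whose windows held none went apart, with a log2 fold change of -2.88 for E2F7, -1.11 for E2F4 and 1.16 for RBL2. Of the DP partners described below, both of which held 1 E2F word in their first window, TFDP1 fell and TFDP2 rose. The word of TFDP2 begins 18 bases after the start, and its windows 2 and 3, at other starts, held none. Over all tested genes with a promoter window, 35.5% of the 9782 without an E2F word were lower and 36.0% were higher. Of the 1255 with 1 word 44.9% were lower and 28.2% higher, and of the 93 with 2 or more words 53.8% were lower and 25.8% higher. These are shares of genes, with no test of their difference.

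The genes whose values over the 6 libraries lay nearest to those of a member were found by the root mean square difference of log2 values, each gene centred on its own mean. For E2F1 they were G0S2 (0.036), TCOF1 (0.062) and KIF18B (0.085). For E2F8 they were HELLS (0.102), SPC24 (0.103) and CDCA8 (0.107), of which SPC24 is a kinetochore protein gene and CDCA8 encodes a subunit of the chromosomal passenger complex. For RBL2 they were NMRK1 (0.044), HEIH (0.045) and PDE5A (0.046), with log2 fold changes of 1.11, 1.19 and 1.17. With 2 groups of 3 libraries such a distance mostly reflects how alike the difference between the groups is.

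The DP genes encode the dimer partners through which E2F1 to E2F6 bind DNA, and they parted in the same way as the pocket proteins. TFDP1 fell from 4960 ± 413 to 1734 ± 78.2 and TFDP2 rose from 1316 ± 106 to 2847 ± 60.0 (SD, n = 3 each). On the log2 scale TFDP1 changed by -1.51 ± 0.07 (SE, limma, adjusted p = 1.9e-13) and TFDP2 by 1.12 ± 0.08 (SE, limma, adjusted p = 4.1e-11). Of the MuvB core and the kinase that assembles DREAM, LIN9 (-1.48), LIN52 (-1.39) and LIN54 (-0.91) fell, the weakest at an adjusted p of 2.9e-07 (limma). LIN37 (0.36), RBBP4 (0.18) and the kinase gene DYRK1A (-0.10) did not pass the threshold, with adjusted p-values of 0.181, 0.15 and 0.251 (limma), although scaled to the total count LIN37 (0.54) and RBBP4 (0.36) were higher and DYRK1A turned to 0.08. The factors that take the place of E2F4 and the pocket protein on MuvB in cycling cells both fell, with a log2 change of -3.38 for MYBL2 and -2.05 for FOXM1 (limma, adjusted p = 1.1e-16 and 5.2e-16).

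Of the ubiquitin ligase parts that act on these proteins, all 4 were called lower, as were 35.4% of all tested genes, and the call of 1 of them was not stable. CCNF, cyclin F, which marks E2F1, E2F7 and E2F8 for degradation, had a log2 fold change of -2.39. SKP2, whose ligase degrades p130, had -1.37, and its cofactor CKS1B had -2.49, each with an adjusted p of at most 3.8e-10 (limma). FZR1 (-0.27, adjusted p = 0.0114, limma) was close to the threshold, and its adjusted p was 0.371 when scaled to the total count, 0.0941 without DMSO library 1 and 0.0523 without erlotinib library 6.

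**Figure D4:**
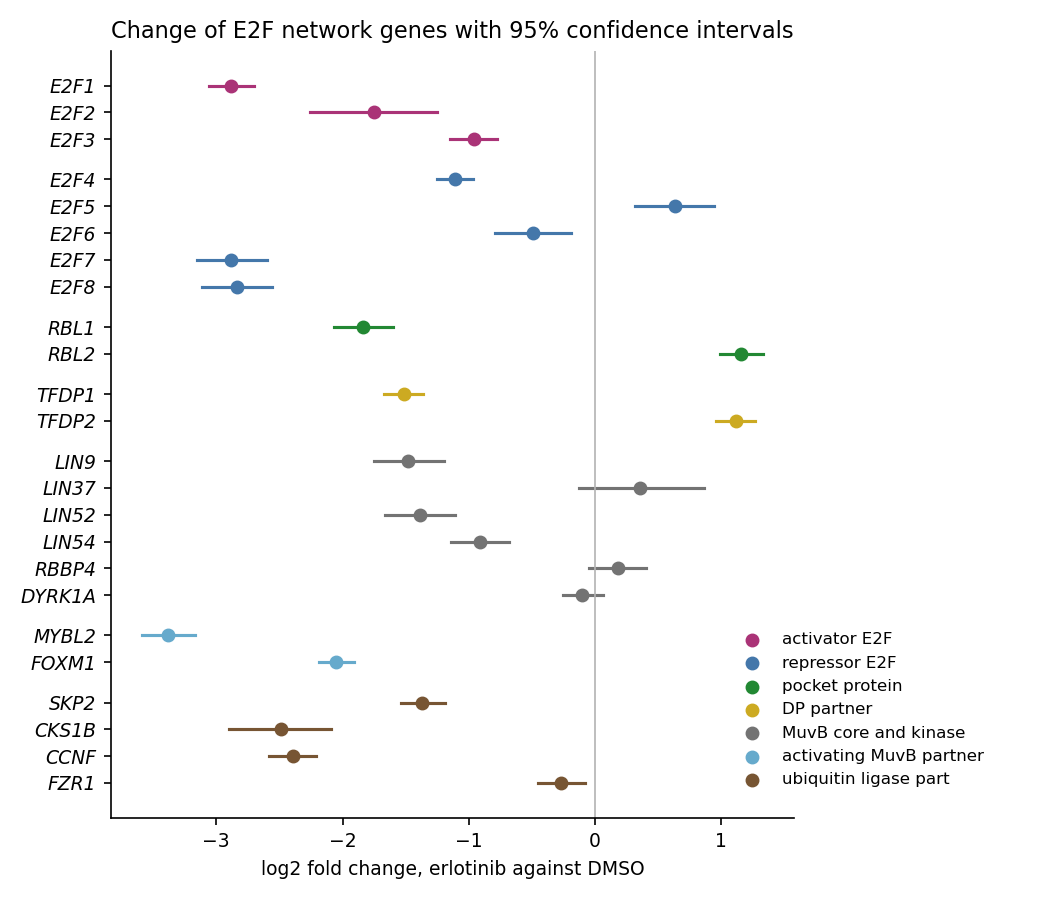
log2 fold change of erlotinib against DMSO for the 10 genes and their partners, with 95% confidence intervals from limma as horizontal lines and colours for roles. Left of the line at 0 is lower with erlotinib. E2F1, E2F7 and E2F8 lie near -2.9, while E2F5, RBL2 and TFDP2 lie to the right of 0.

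Upstream of the pocket proteins, 12 of 13 cyclin, kinase and inhibitor genes could be tested, and 10 were lower and 1 higher, beside 35.4% and 35.3% of all tested genes. CCND1, a D-type cyclin, had a log2 fold change of -3.23, CCNE2 (cyclin E2) of -3.16 and the phosphatase gene CDC25A of -3.03, while CCNE1 had -1.46. CCND3, another D-type cyclin and named here after its values were seen, had -1.30. CDK4, which phosphorylates pocket proteins with cyclin D, had the most signal of the list, not scaled for length, at a mean signal of 83505 without and 44367 with the drug. CDKN1B, which encodes the inhibitor p27, was the gene that rose, from 3539 ± 16.0 to 5447 ± 41.8 (SD, n = 3 each). CDKN1A, which encodes p21, had 484 ± 58.1 and 482 ± 59.4, and CDKN2C fell by 1.07 on the log2 scale. CCND2, at a mean signal of 4.09 without and 3.87 with the drug, was too low to test.

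Downstream, all 32 genes listed as G1/S targets of E2F fell, with a median log2 fold change of -2.37, where 35.4% of all tested genes were lower and their median was 0.02. CCNE1 and CCNE2 are in this list as well as in the upstream one. The largest falls were those of MCM10 (-4.41), CLSPN (-4.34) and CDC6 (-4.19), which act in loading and starting the replicative helicase and in guarding forks. MCM7 had the most signal of the list, 8761 in DMSO and 3060 with erlotinib. All 24 genes listed as G2/M targets of DREAM and MuvB fell as well, against the same 35.4%, with a median of -2.60, led by AURKB (-3.33), ANLN (-3.07) and CDK1 (-3.03), and TOP2A had the most signal. Both medians lay between the change of RBL1 (-1.84) and those of E2F1, E2F7 and E2F8. The lists differ in promoter letters: an E2F word was found for 19 of the 27 G1/S genes with a window and for 3 of the 19 G2/M genes. The CHR word TTTGAA, the element that MuvB contacts, was found for 1 and 13 of them, and for 13.6% of all tested genes with a window.

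**Figure D5:**
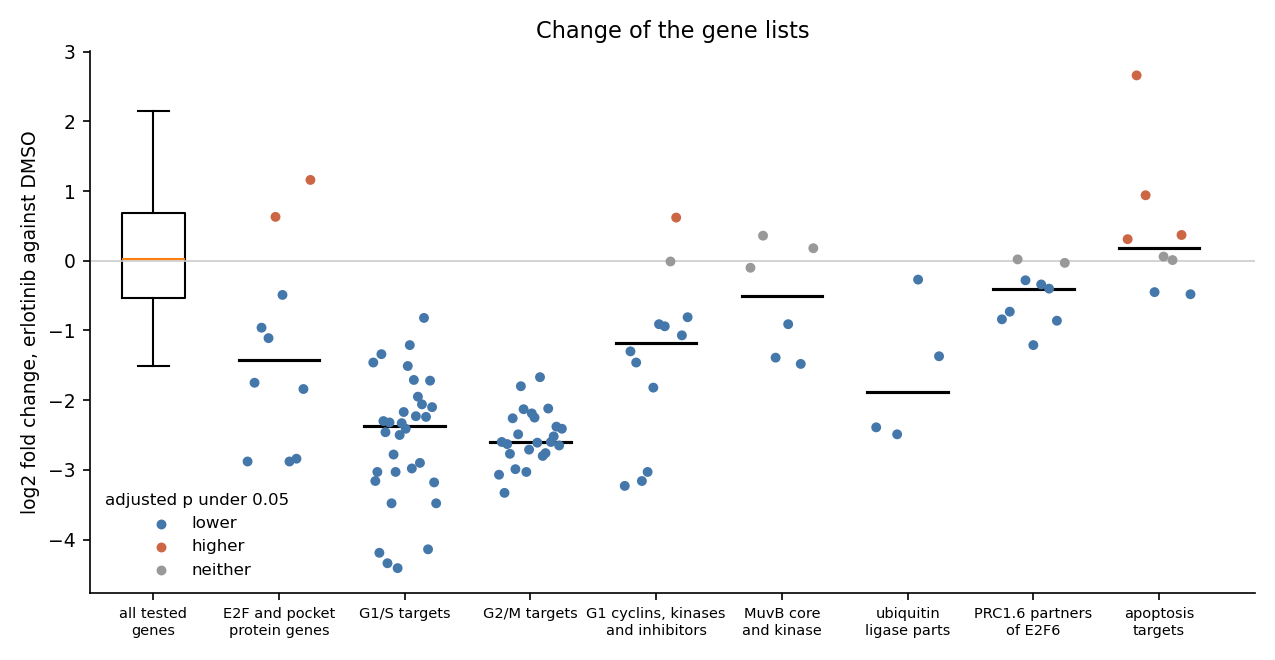
log2 fold change of each tested gene of the lists, 1 point per gene, coloured by call at an adjusted p under 0.05 in limma, with a black bar at the median of a list. The box on the left gives the median, quartiles and 5th to 95th percentiles of all 14215 tested genes, and every point of the G1/S and G2/M lists lies below 0.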

How the data were processed

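Read pairs were aligned by the authors to GRCh38 using Bowtie2 2.3.4, which does not split reads at introns, and counted unique reads per gene with featureCounts 1.6.3. The signal values deposited by the authors were whole multiples of 1 step per library for 100% of values (tolerance 0.01 of a read), so reads were recovered by division. Since the signal is not whole counts, limma with a variance trend was run on log2(signal + 1) over genes averaging 10 or more signal units, two-sided, with Benjamini-Hochberg adjustment over all genes. Fold changes on this scale understate the change of low genes. Replicates differed by more than sampling noise (a chi-square of 4.13 to 24.3 for each degree of freedom). Depth limits precision mainly for E2F2.

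The members and lists were chosen with earlier results of these data known. Named are all 10 members, all genes of lists with up to 8 genes, the extremes and the gene with the most signal in longer lists, some cyclin and inhibitor genes, and the 3 genes nearest in pattern to E2F1, E2F8 and RBL2. Each marker list is given by its sum and the genes with the most signal, and the epithelial markers that did not fall are named too. Alternatives were edgeR and DESeq2 on recovered reads, TMM and total-count scaling, pseudocounts of 0.1 and 10, other filters, a threshold of 0.01, each library left out and, added after seeing the data, exon union lengths. Positions came from RefSeq, transcript lengths from GENCODE release 44, and copies from an alignment with minimap2 2.31-r1302 in its splice mode. Motifs in the encoded proteins were not analysed here. Some genes of the apoptosis list are not reported here by name. All tests were first run on simulated data. The versions were DESeq2 1.42.0, edgeR 4.0.16 and limma 3.58.1 under R 4.3.3, with figures by matplotlib 3.10.9 under Python 3.11.15.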

Additional observations from a re-analysis of the deposited data

How the results depend on the processing

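Under the 15 alternatives to the fit, all 10 E2F and pocket protein genes kept their direction, and 9 kept their call in every one. The exception was E2F6, whose log2 fold change was -0.31 (adjusted p = 0.0618, limma) with scaling to the total count, and -0.63 to -0.34 with each library left out in turn, all of these past the threshold. Left out in turn, E2F5 had 0.54 to 0.71 and RBL2 1.09 to 1.23. Scaling to the total count moved the median of all tested genes from 0.02 to 0.19 and the calls from 5031 lower and 5012 higher to 3955 and 6156, so that the falls above are smaller and the rises larger by about that shift (E2F1 -2.70, RBL2 1.34). Under the same scaling 2 MuvB genes (LIN37 and RBBP4) and 1 PRC1.6 gene became higher, and DYRK1A turned to 0.08. The number of MuvB genes that were higher was 0 to 1 with each library left out, the 1 being RBBP4 without DMSO library 2. FZR1 lost its call at a threshold of 0.01 and without DMSO library 1 (adjusted p = 0.0941) or erlotinib library 6 (0.0523). The cause was not tested. No paired analysis was possible because the erlotinib columns of the table are numbered 4 to 6 and do not carry the replicate numbers of the labels. The limit given for 0 reads covers counting error only, and E2F2, with 34 to 43 reads in each erlotinib library, had the widest confidence interval of the 10 genes.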

Other observations

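E2F6 acts within PRC1.6, and 9 of the 10 genes listed for that complex could be tested. Of these, 7 fell and 0 rose at an adjusted p under 0.05 in limma, with a median log2 fold change of -0.40, where 35.4% of all tested genes were lower. The count was 5 when scaled to the total count, 6 without erlotinib library 4 or 5 and 6 at a threshold of 0.01. The largest falls were those of PCGF6 (-1.21), which gives the complex its identity, WDR5 (-0.86) and CBX3 (-0.84). CBX3 had the most signal of the list, not scaled for length, at a mean signal of 9662 without and 5380 with the drug. MAX (0.02) and YAF2 (-0.03) did not pass the threshold, with adjusted p-values of 0.782 and 0.846, and RING1 is listed at 0 in every library, which does not show that it is not expressed. Of 8 germline genes known to be kept silent by E2F6 or PRC1.6, MAEL, SLC25A31, DAZL, DDX4 and TEX101 held 0 reads in every library, which allows up to 3 reads in each. SYCP3, at a mean signal of 7.05 without and 3.46 with the drug, was not tested. SMC1B had 29.3 ± 13.5 and 30.0 ± 4.46, and STAG3 rose from 36.1 ± 8.29 to 213 ± 7.38 (SD, n = 3), which is 2.55 on the log2 scale (adjusted p = 1.8e-09, limma). STAG3 has near-identical partial copies elsewhere in the genome, so its reads are uncertain.

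E2F1 is also known to turn on genes of apoptosis, and 8 of them were listed. Of these genes 4 rose and 2 fell, where 35.3% of all tested genes were higher and 35.4% lower. The median log2 fold change of all 8 was 0.19. In so short a list such counts are not far from those shares and are not read as a trait of the list. BBC3, which encodes the BH3-only protein PUMA, rose most, from 102 ± 15.8 to 647 ± 22.2 (SD, n = 3), which is 2.66 on the log2 scale (adjusted p = 7.0e-13, limma). BCL2L11, which encodes BIM, had 0.94, MAP3K5 had 0.37 and APAF1 0.31, and all 3 passed, MAP3K5 with the largest adjusted p of 0.0208 (limma). The count of genes that rose was 3 at a threshold of 0.01 and when DMSO library 2 or 3 or erlotinib library 4 or 6 was left out, and 6 when scaled to the total count, beside 35.3% higher among all tested genes. PMAIP1 (-0.48) was lower, and CASP8 (0.01) had an adjusted p of 0.946 (limma).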
